A study of Mus musculus with 14 samples.

Results

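Genes that cells switch on in response to interferon were followed across mammary glands of ovariectomized mice given estradiol (E2), an estrogen receptor blocker, or both. The list holds 33 genes of the antiviral, GTPase, antigen-processing and chemokine branches of the response. A gene was taken as measured where a probe set carried its symbol and no other, and a gene with more than 1 such probe set was read at the brightest, by the mean of all 14 arrays. By this rule 31 of the 33 genes were measured, out of 18193 genes named on the array. The rule takes genes by name, but the list was chosen with earlier results of these data known, so it is not independent of them. Isg15 and Ifi44 are the other members.

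The study asked how 4 blockers of estrogen receptors change the transcripts that E2 controls in the mouse mammary gland. Female C57BL/6 mice, 11 to 12 weeks old on arrival, were all ovariectomized, the vehicle group included, and treated 7 days later. Each of 10 groups of 8 mice received the vehicle, E2, a blocker, or E2 together with a blocker, and tissue was taken 3 h after the injection. The blockers were acolbifene (given as EM-652.HCl), raloxifene, tamoxifen (as the citrate) and fulvestrant (ICI 182780). Fulvestrant is a steroid built on E2 itself with a long side chain, tamoxifen is a triphenylethylene, raloxifene a benzothiophene and acolbifene a benzopyran. No source used here gives the doses of the blockers, so their values stand side by side with no claim of matched doses. Glands of all mice of a group were pooled before RNA was made, so an array reads a pool of animals, and the arrays of 1 group need not come from separate animals. The spread that the p-values below measure is that between arrays, and it may be technical.

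Interferons of type I signal through a receptor whose activated factors, STAT2 among them, join IRF9 and bind the interferon-stimulated response element (ISRE) in front of their target genes. Interferon gamma, a type II interferon made by lymphocytes and NK cells, has a receptor of its own and acts through another element, the gamma-activated site (GAS). The induced proteins degrade viral RNA, hold viruses at membranes, coat intracellular parasites, trim peptides for MHC class I and attract T cells. In the mammary gland macrophages, which surround ducts and fat, respond to both kinds of interferon, and a low level of many of these transcripts is kept up without infection.

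There were 2 arrays for each of 4 groups (vehicle, E2, acolbifene, and E2 with acolbifene) and 1 for each of the other 6. Levels are log2 values, so a difference of 1 is a doubling, and those of different genes are not compared here. The raw files carry 1 of 2 leading codes, R136 for E2 array 1 and the 6 single arrays, and R137 for the other 7 arrays. The SD of the log2 difference between 2 arrays, over all 45037 probe sets, was 0.163 for the vehicle pair, 0.166 for the E2 pair, 0.173 for the acolbifene pair and 0.16 for the E2+acolbifene pair. The rest of the raw-file code is shared by both arrays of a group, and the raloxifene array shares it with the E2+acolbifene arrays. From the raloxifene array that SD was 0.176 to E2+acolbifene array 1 and 0.182 to array 2, against 0.214 and 0.221 to the vehicle arrays. It was smaller to 4 arrays that share its R136 code: fulvestrant (0.151), tamoxifen (0.154), E2+raloxifene (0.158) and E2+fulvestrant (0.16). Of the 6 single arrays the raloxifene array was the nearest to both E2+acolbifene arrays, followed by tamoxifen at 0.184 and 0.186. The E2+raloxifene array was nearest to the tamoxifen array (0.145, the smallest of all 91 pairs), and the E2+fulvestrant array to E2 array 1 (0.156). The groups below are those of the deposited labels, and every value for raloxifene or E2+acolbifene rests on them. Of the tissue's own markers, the brighter ones had mean levels of 10.4 (Krt8), 10.7 (Krt18) and 10.2 (Epcam) for the epithelium. Adipoq stood at 13.9 for fat and Col3a1 at 14.1 for stroma. Other epithelial markers had mean levels of 8.84 (Elf5), 8.63 (Cdh1), 8.18 (Krt14) and 7.34 (Trp63). Markers of lymphocytes and muscle were also read, with Ighm at 12.8 and Acta1 at 11.5.

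Promoters of the members that moved together are shown for their interferon elements. RefSeq windows of GRCm38.p6, from 250 bases before to 50 bases after a transcription start, were at hand for 26 of the 31 measured members. The ISRE core, taken as GAAA, any 2 bases and GAAA again on either strand, matched in 13 of the 26 genes, which is 41.9% of their windows against 3.44% of all 32851 windows of the same length. The GAS motif, taken as TTC, any 3 bases and GAA, which reads the same on both strands, matched in 7 of the 26 genes (22.6% of windows against 8.3% of all). The 2 motifs do not exclude each other, and 2 genes, Bst2 and Igtp, held both. The stretches below belong to the 9 genes that were called lower with E2+acolbifene than with acolbifene alone and had an ISRE core ahead of their start. Capitals mark the ISRE core or, on the other strand, its reverse complement, with 12 bases of flank.
Ifit1 (chr19:34640773-34640825, plus strand): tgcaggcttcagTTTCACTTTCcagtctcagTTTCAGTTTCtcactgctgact
Ifit3 (chr19:34583361-34583428, plus strand): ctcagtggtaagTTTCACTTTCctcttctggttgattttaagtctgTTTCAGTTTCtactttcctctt
Oas3 (chr5:120777713-120777746, minus strand): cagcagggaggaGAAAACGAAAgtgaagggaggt
Stat2 (chr10:128270264-128270297, plus strand): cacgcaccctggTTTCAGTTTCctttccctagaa
Bst2 (chr8:71537575-71537614, minus strand): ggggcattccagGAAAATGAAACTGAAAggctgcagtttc
Gbp2 (chr3:142620592-142620625, plus strand): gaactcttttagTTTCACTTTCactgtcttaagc
Gbp3 (chr3:142559987-142560026, plus strand): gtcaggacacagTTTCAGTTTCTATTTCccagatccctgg
Igtp (chr11:58199510-58199543, plus strand): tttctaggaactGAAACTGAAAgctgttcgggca
Irgm1 (chr11:48871423-48871462, minus strand): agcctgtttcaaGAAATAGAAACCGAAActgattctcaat
Ifit1 and Ifit3 each held 2 separate cores, while Bst2, Gbp3 and Irgm1 held 2 that overlap. In Igtp and Irgm1 the cores lay closest to the start, beginning 34 bases before it in Igtp and 30 and 24 bases before it in Irgm1. A match describes these letters only and not binding of a factor.

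Across the arrays most members lay on the same side of the vehicle. In a pool of whole glands, fewer cells of a type and less RNA per cell cannot be told apart. With E2, 29 of 31 members lay below both vehicle arrays on array 1 and 25 on array 2, where 43.6% and 40.8% of all probe sets did so. With acolbifene alone 21 and 19 members lay above both vehicle arrays (42.7% and 38.7% of all probe sets). On the E2+acolbifene arrays 30 and 31 members lay below both vehicle arrays, against 38.5% and 40.1% of all probe sets. Of the single arrays, E2+fulvestrant had all 31 members below both vehicle arrays, E2+tamoxifen 29, tamoxifen 27, raloxifene 26, fulvestrant 23 and E2+raloxifene 20. Over all probe sets the shares on these arrays were 38.8%, 44%, 38.2%, 41.9%, 38.4% and 36%, in the same order. The member median stood furthest below the vehicle mean with E2+fulvestrant and E2+tamoxifen (both -0.35) and nearest to it with E2+raloxifene (-0.05).

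**Figure D1:**
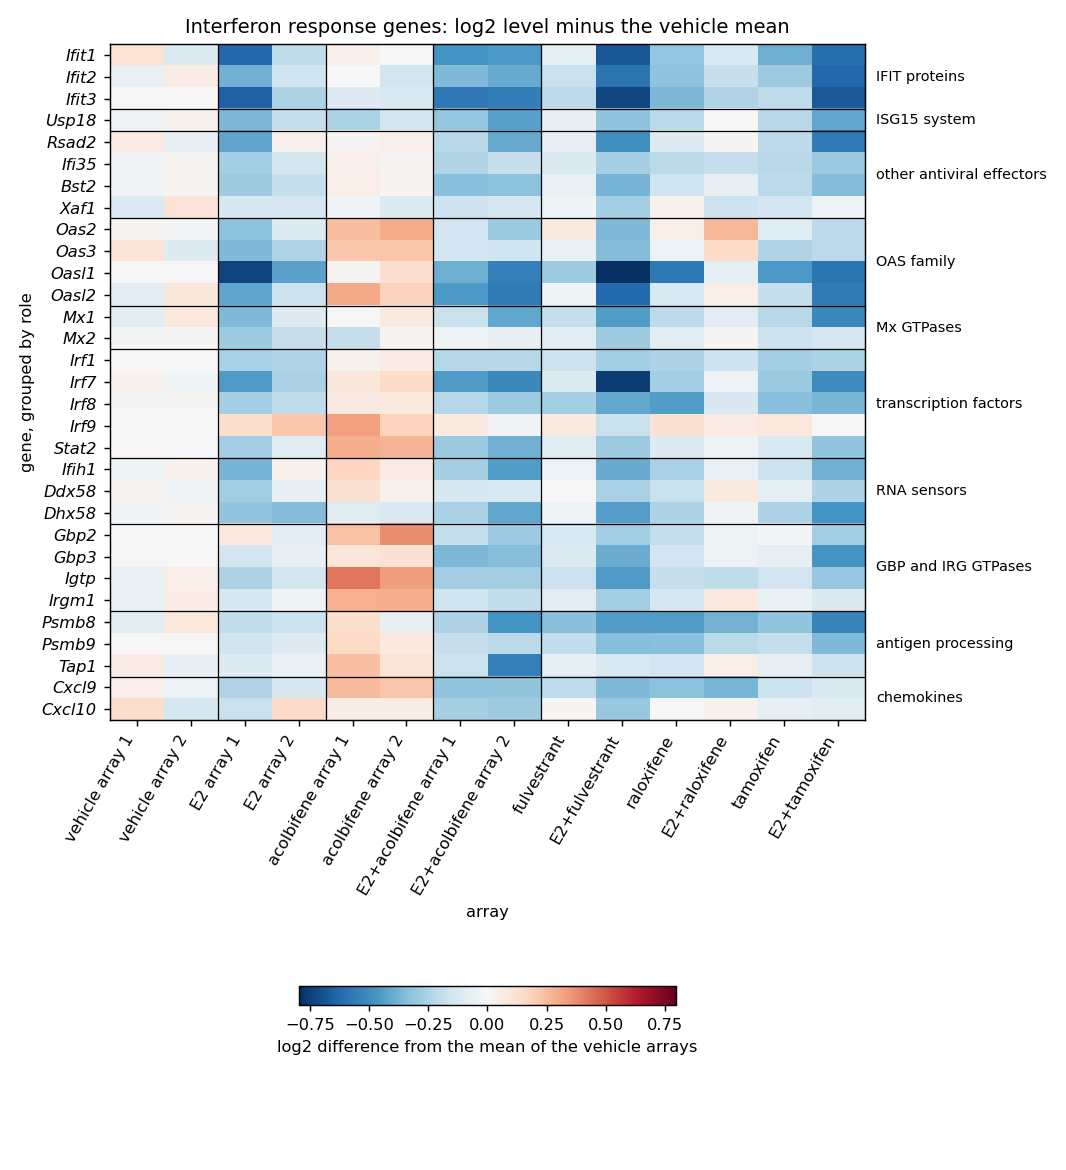
Each row is 1 of the 31 measured interferon response genes, grouped by role, and each column is 1 array; colour gives the log2 level minus the mean of the vehicle arrays. The E2, E2+acolbifene, E2+fulvestrant and E2+tamoxifen columns are mostly blue (lower). The tamoxifen, raloxifene and fulvestrant columns, without E2, also hold mostly lower values, with 27, 26 and 23 members below both vehicle arrays. Of all probe sets 38.2%, 41.9% and 38.4% lay below both on these arrays. The acolbifene columns are mostly pale red, deepest for Igtp on array 1 (0.43) and for Gbp2 on array 2 (0.37).

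The E2 arrays differed from each other in these genes. The member median was lower on array 1 than on array 2 by 0.11 on the log2 scale, with 28 of 31 members lower there, while the other pairs differed by at most 0.05 in size. E2 array 1 carries the R136 code and E2 array 2 the R137 code, so the code and the array cannot be told apart in this pair. The mean of the 11 spike-in control probe sets ran from 10.48 to 10.66 on the 6 arrays of the vehicle, of acolbifene and of its combination with E2, and from 10.09 to 10.31 on the E2 and single arrays. The SD of all levels on an array, set by the authors' processing, was 2.01 and 2.00 on the acolbifene arrays, 1.93 and 1.90 on the E2+acolbifene arrays and 1.88 on the E2+tamoxifen array. With a term for the raw-file code the member median of E2 against vehicle was -0.14 in place of -0.21, and no member was called in place of 1. Skeletal muscle markers also differed within the E2 pair, with a median against the vehicle mean of -0.82 on array 1 and 0.43 on array 2; their part in the members' values was not tested.

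**Figure D2:**
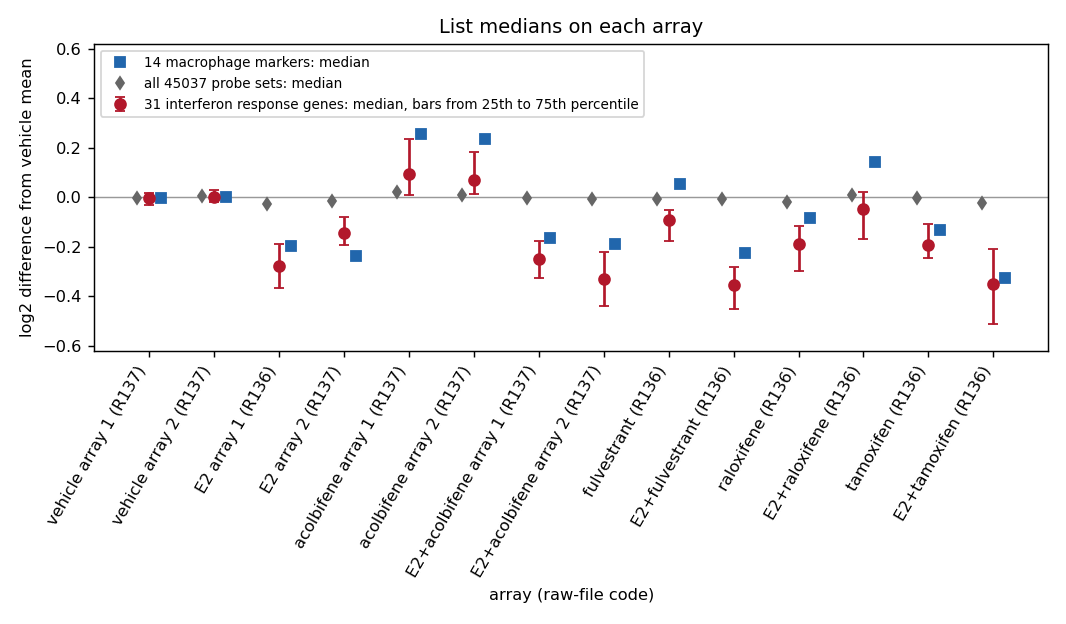
For each array (raw-file code in brackets) the red point is the median over the 31 interferon response genes of the log2 level minus the vehicle mean, with bars from the 25th to the 75th percentile of the genes; the blue square is the median of 14 macrophage markers and the grey diamond that of all 45037 probe sets. The red points of the E2, E2+acolbifene, E2+fulvestrant and E2+tamoxifen arrays lie between -0.14 and -0.35. Those of tamoxifen and raloxifene, without E2, lie within the same range (both -0.19), with fulvestrant at -0.09 and E2+raloxifene at -0.05. Those of acolbifene are at 0.09 and 0.07, and the grey diamonds stay near 0.

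The clearest contrast was that between mice given acolbifene with and without E2. With E2 added, 19 of the 31 members fell and none rose, at a limma adjusted p under 0.05; over all probe sets 9.2% were called in either direction and 5.67% were called lower. The median member difference was -0.37, 30 members were below 0, and for the same 30 every E2+acolbifene array read below every acolbifene array (32.5% of all probe sets did so). Oasl2, an OAS-like protein, fell by 0.75 on the log2 scale, Igtp, an immunity-related GTPase, by 0.66, Stat2 by 0.62 and Irf7, the factor that amplifies type I interferon, by 0.61. The call count rests on both pairs: it was 0 without acolbifene array 1 or without E2+acolbifene array 2, and 5 without acolbifene array 2 or without E2+acolbifene array 1. After another quantile normalization, which gives every array the same distribution, 5 members were called and the median was -0.28. The shares of all probe sets called in these refits are not given here, so a lower count is not a result about the members alone.

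**Figure D3:**
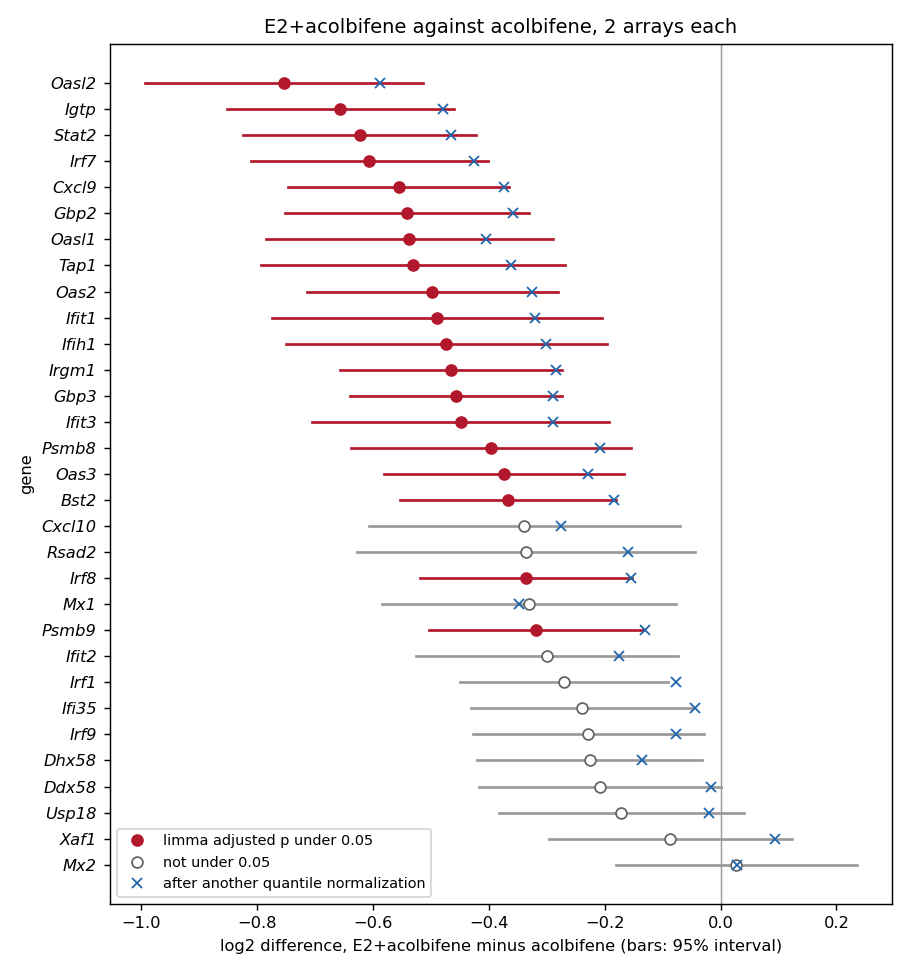
Points give the log2 difference E2+acolbifene minus acolbifene (means of 2 arrays each) for the 31 genes with 95% intervals from limma; filled points passed an adjusted p of 0.05, open ones did not, and crosses give the difference after another quantile normalization. All points except Mx2 lie below 0, and the crosses lie nearer to 0 than the points for all genes but Mx1, Mx2 and Xaf1.

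Against the vehicle, E2 and E2+acolbifene each gave 1 call. With E2, Oasl1, an OAS-like protein that restrains Irf7 translation, fell by 0.58 on the log2 scale, the median member difference was -0.21, and 30 of 31 members were below 0; 3.74% of all probe sets were called. At an unadjusted limma p under 0.05, 16 members were lower and none higher, where 19.7% of all probe sets passed in either direction. Of the members, 24 read lower on both E2 arrays than on both vehicle arrays (30.1% of all probe sets). With E2+acolbifene, Irf7 fell by 0.49, the median was -0.31, and 0.837% of all probe sets were called. At an unadjusted limma p under 0.05, 25 members were lower, where 19.4% of all probe sets passed in either direction. In this comparison 30 members were lower without overlap (27.8% of all probe sets). The call of Oasl1 was lost without E2 array 1 or with a term for the raw-file code (adjusted p = 0.133 in both cases), without vehicle array 1 (0.109) and without vehicle array 2 (0.0815). The call of Irf7 was lost without either vehicle array (0.163 and 0.169), either E2+acolbifene array (0.145 and 0.22) or either acolbifene array (0.0583 in both cases), and after another quantile normalization (0.0938).

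Acolbifene alone gave no call among the members. At an unadjusted limma p under 0.05, 9 members were higher and none lower, where 16% of all probe sets passed in either direction. The member median was 0.08, 25 members were above 0, and 18 read higher on both acolbifene arrays than on both vehicle arrays (26.8% of all probe sets); 0.597% of all probe sets were called. E2+acolbifene against E2 alone also gave no call, and 3.66% were called over all probe sets. At an unadjusted limma p under 0.05, 3 members were lower and none higher. Over all probe sets 24.8% passed in either direction, so the members passed less often than probe sets at large. The member median was -0.10, and 15 members were lower without overlap (26.3% of all probe sets). The 95% interval of a member's difference was 0.42 wide at the median, so changes of that order could have been missed. In the test of whether acolbifene acted differently with and without E2, Gbp2 alone passed, at -0.54 ± 0.14 (SE, adjusted p = 0.0496), and 4.47% of all probe sets did. That call was lost on leaving out any 1 of the 8 arrays (adjusted p from 0.072 without E2+acolbifene array 1 to 0.158 without E2+acolbifene array 2). The comparisons with the vehicle share its arrays, and those with E2 or acolbifene share theirs, so their values are not independent of each other.

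The RNA sensors detect viral RNA in the cytoplasm and start interferon production. Ifih1, which encodes MDA5, read 9.98 and 10.05 on the vehicle arrays, 9.64 and 10.05 with E2, 10.19 and 10.08 with acolbifene, and 9.75 and 9.57 with E2+acolbifene. Its single arrays read 9.97 with fulvestrant and 9.62 with E2+fulvestrant, 9.76 with raloxifene and 9.96 with E2+raloxifene, and 9.85 with tamoxifen and 9.63 with E2+tamoxifen. E2+acolbifene lay below acolbifene, at -0.47 ± 0.13 (SE, adjusted p = 0.0426), and E2 array 2 was level with the vehicle while E2 array 1 was the lower of the pair. Dhx58, which encodes LGP2, read 8.72 and 8.75 on the vehicle arrays, 8.42 and 8.39 with E2, 8.64 and 8.61 with acolbifene, and 8.48 and 8.32 with E2+acolbifene. Among single arrays Dhx58 read 8.70 with fulvestrant and 8.29 with E2+fulvestrant, 8.49 with raloxifene and 8.71 with E2+raloxifene, and 8.49 with tamoxifen and 8.26 with E2+tamoxifen. The E2 arrays lay below both vehicle arrays for Dhx58, a difference of -0.33 ± 0.09 (SE, adjusted p = 0.0656), and acolbifene alone differed from the vehicle by -0.11 ± 0.09 (SE, adjusted p = 0.576); neither passed. Ddx58, which encodes RIG-I, ranged from 10.46 on E2 array 1 to 10.86 on acolbifene array 1, and its E2+acolbifene against acolbifene difference of -0.21 did not pass (adjusted p = 0.168).

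Of the 5 transcription factors 3 fell when E2 was added to acolbifene. Irf7 read 10.26 and 10.20 on the vehicle arrays, 9.78 and 9.97 with E2, 10.33 and 10.38 with acolbifene, and 9.78 and 9.72 with E2+acolbifene. On the single arrays Irf7 read 10.12 with fulvestrant and 9.47 with E2+fulvestrant, 9.95 with raloxifene and 10.19 with E2+raloxifene, and 9.93 with tamoxifen and 9.73 with E2+tamoxifen. All 4 arrays with E2, with or without acolbifene, lay below all 4 without it, and E2+fulvestrant was the lowest of all 14 arrays. The difference was -0.61 ± 0.09 (SE, adjusted p = 0.0105) between E2+acolbifene and acolbifene and -0.35 ± 0.09 (SE, adjusted p = 0.0617) between E2 and vehicle, where it did not pass. Stat2, the partner of IRF9 at the ISRE, read 9.64 and 9.64 on the vehicle arrays, 9.36 and 9.55 with E2, 9.93 and 9.92 with acolbifene, and 9.35 and 9.26 with E2+acolbifene. Elsewhere Stat2 read 9.55 with fulvestrant and 9.35 with E2+fulvestrant, 9.54 with raloxifene and 9.62 with E2+raloxifene, and 9.52 with tamoxifen and 9.32 with E2+tamoxifen. Acolbifene arrays were the 2 highest and E2+acolbifene array 2 the lowest, a difference of -0.62 ± 0.09 (SE, adjusted p = 0.00926). Irf8, a factor of macrophages, dendritic cells and B cells, read 10.41 and 10.44 on the vehicle arrays, 10.16 and 10.22 with E2, 10.50 and 10.51 with acolbifene, and 10.20 and 10.14 with E2+acolbifene. With the other blockers Irf8 read 10.15 with fulvestrant and 10.02 with E2+fulvestrant, 9.98 with raloxifene and 10.30 with E2+raloxifene, and 10.09 with tamoxifen and 10.06 with E2+tamoxifen. Irf8 differed by -0.34 ± 0.08 (SE, adjusted p = 0.0373) between E2+acolbifene and acolbifene, and here the raloxifene array was the lowest of all.

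Irf9, the DNA-binding subunit of the ISRE complex, was the exception among the factors when E2 or E2+acolbifene was set against the vehicle. Between E2+acolbifene and acolbifene it was below 0 like the other factors, at -0.23, and did not pass. Irf9 read 9.20 and 9.19 on the vehicle arrays, 9.34 and 9.41 with E2, 9.53 and 9.37 with acolbifene, and 9.26 and 9.18 with E2+acolbifene. In the other groups Irf9 read 9.26 with fulvestrant and 9.02 with E2+fulvestrant, 9.31 with raloxifene and 9.26 with E2+raloxifene, and 9.28 with tamoxifen and 9.19 with E2+tamoxifen. It was the only member with E2 above the vehicle, at 0.18 ± 0.09 (SE, adjusted p = 0.305), and acolbifene differed from the vehicle by 0.25 ± 0.09 (SE, adjusted p = 0.215); neither passed. Both E2 and both acolbifene arrays lay above both vehicle arrays, while E2+acolbifene did not stand apart from the vehicle (0.03, with the sign turned after subtracting array medians and without E2+acolbifene array 1). Irf1, induced mainly by interferon gamma, ranged only from 10.79 with E2+fulvestrant to 11.13 on acolbifene array 2, and its difference of -0.27 did not pass (adjusted p = 0.0588).

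The IFIT proteins bind viral RNA that lacks the host's cap methylation. Ifit1 read 10.17 and 9.95 on the vehicle arrays, 9.43 and 9.86 with E2, 10.10 and 10.06 with acolbifene, and 9.58 and 9.60 with E2+acolbifene. Its other arrays read 9.98 with fulvestrant and 9.38 with E2+fulvestrant, 9.75 with raloxifene and 9.94 with E2+raloxifene, and 9.67 with tamoxifen and 9.46 with E2+tamoxifen. Ifit1 was lowest with E2+fulvestrant and differed by -0.49 ± 0.13 (SE, adjusted p = 0.0421) between E2+acolbifene and acolbifene. Ifit3 read 10.10 and 10.10 on the vehicle arrays, 9.45 and 9.85 with E2, 9.99 and 9.98 with acolbifene, and 9.53 and 9.55 with E2+acolbifene. For Ifit3 the single arrays read 9.89 with fulvestrant and 9.37 with E2+fulvestrant, 9.74 with raloxifene and 9.86 with E2+raloxifene, and 9.89 with tamoxifen and 9.43 with E2+tamoxifen. Every array with E2 other than E2+raloxifene and E2 array 2 lay below every array without it, and the E2+acolbifene against acolbifene difference was -0.45 ± 0.12 (SE, adjusted p = 0.0403). With acolbifene alone the difference from the vehicle was 0.02 for Ifit1 and -0.11 for Ifit3. Against the vehicle, E2 gave -0.45 ± 0.12 (SE, adjusted p = 0.0576) for Ifit3 and -0.41 ± 0.13 (SE, adjusted p = 0.105) for Ifit1. Ifit2 ranged from 8.47 with E2+tamoxifen to 9.16 on vehicle array 2 and did not pass between E2+acolbifene and acolbifene (-0.30, adjusted p = 0.0835).

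**Figure D4:**
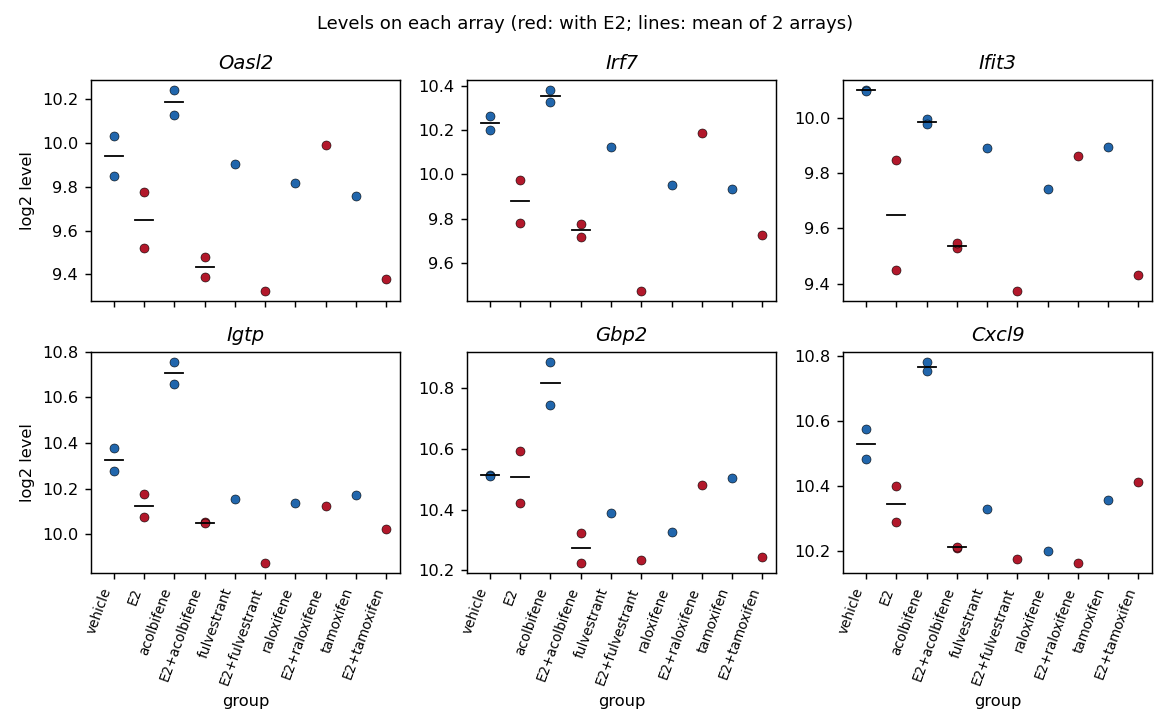
Log2 levels of Oasl2, Irf7, Ifit3, Igtp, Gbp2 and Cxcl9 on each array by group; red points are groups with E2, blue points groups without, and lines mark the mean of 2 arrays. In all 6 panels both acolbifene points lie above both E2+acolbifene points, and for all but Ifit3 they also lie above both vehicle points.

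All 4 genes of the OAS family, which make, or resemble enzymes that make, the oligoadenylate activator of RNase L, fell when E2 was added to acolbifene. Oasl1 read 9.24 and 9.24 on the vehicle arrays, 8.50 and 8.81 with E2, 9.25 and 9.37 with acolbifene, and 8.85 and 8.69 with E2+acolbifene. On single arrays Oasl1 read 8.95 with fulvestrant and 8.44 with E2+fulvestrant, 8.67 with raloxifene and 9.17 with E2+raloxifene, and 8.78 with tamoxifen and 8.65 with E2+tamoxifen. It showed the widest range of any member (0.94), from E2+fulvestrant up to acolbifene array 2, with a difference of -0.58 ± 0.11 (SE, adjusted p = 0.0182) for E2 against vehicle and -0.54 ± 0.11 (SE, adjusted p = 0.0255) for E2+acolbifene against acolbifene. Oasl2 read 9.85 and 10.03 on the vehicle arrays, 9.52 and 9.78 with E2, 10.24 and 10.13 with acolbifene, and 9.48 and 9.39 with E2+acolbifene. Its values elsewhere were 9.90 with fulvestrant and 9.32 with E2+fulvestrant, 9.82 with raloxifene and 9.99 with E2+raloxifene, and 9.76 with tamoxifen and 9.38 with E2+tamoxifen. Oasl2 differed by -0.75 ± 0.11 (SE, adjusted p = 0.00871) between E2+acolbifene and acolbifene, the largest member difference in that comparison. Oas2 read 9.93 and 9.90 on the vehicle arrays, 9.58 and 9.80 with E2, 10.16 and 10.21 with acolbifene, and 9.76 and 9.62 with E2+acolbifene. Other groups gave Oas2 levels of 9.98 with fulvestrant and 9.56 with E2+fulvestrant, 9.97 with raloxifene and 10.18 with E2+raloxifene, and 9.82 with tamoxifen and 9.70 with E2+tamoxifen. Acolbifene and E2+raloxifene arrays were the 3 highest, and the difference on adding E2 to acolbifene was -0.50 ± 0.10 (SE, adjusted p = 0.0216). Oas3 read 9.41 and 9.21 on the vehicle arrays, 8.96 and 9.07 with E2, 9.53 and 9.54 with acolbifene, and 9.16 and 9.15 with E2+acolbifene. The single-array levels of Oas3 were 9.26 with fulvestrant and 8.96 with E2+fulvestrant, 9.26 with raloxifene and 9.46 with E2+raloxifene, and 9.07 with tamoxifen and 9.11 with E2+tamoxifen. Oas3 differed by -0.37 ± 0.09 (SE, adjusted p = 0.0383), while against E2 alone E2+acolbifene gave -0.00 for Oas2 and 0.14 for Oas3, neither passing.

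The Mx proteins are GTPases that block viral replication, and most laboratory mouse strains, C57BL/6 included, carry defective forms of them. Mx2 read 7.78 and 7.81 on the vehicle arrays, 7.51 and 7.61 with E2, 7.61 and 7.82 with acolbifene, and 7.75 and 7.73 with E2+acolbifene. Beyond these, Mx2 read 7.70 with fulvestrant and 7.51 with E2+fulvestrant, 7.70 with raloxifene and 7.80 with E2+raloxifene, and 7.63 with tamoxifen and 7.66 with E2+tamoxifen. It was the only member above 0 between E2+acolbifene and acolbifene, at 0.03 with a sign that turned after subtracting array medians (-0.02) and without acolbifene array 1 (-0.07). Mx1 ranged from 7.11 with E2+tamoxifen to 7.72 on vehicle array 2, and its difference of -0.33 did not pass (adjusted p = 0.0867).

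Of the other antiviral genes Bst2, which encodes the tetherin that holds budding virus at the cell surface, fell. Bst2 read 10.31 and 10.35 on the vehicle arrays, 10.04 and 10.14 with E2, 10.38 and 10.34 with acolbifene, and 9.99 and 10.00 with E2+acolbifene. Its remaining arrays read 10.27 with fulvestrant and 9.95 with E2+fulvestrant, 10.17 with raloxifene and 10.27 with E2+raloxifene, and 10.12 with tamoxifen and 9.98 with E2+tamoxifen. E2+acolbifene was below acolbifene, at -0.37 ± 0.09 (SE, adjusted p = 0.0323), with both E2+acolbifene arrays also below both E2 arrays. Usp18, which removes ISG15 and damps the type I receptor, read 9.74 and 9.79 on the vehicle arrays, 9.40 and 9.58 with E2, 9.51 and 9.62 with acolbifene, and 9.45 and 9.33 with E2+acolbifene. With the other treatments Usp18 read 9.70 with fulvestrant and 9.44 with E2+fulvestrant, 9.54 with raloxifene and 9.76 with E2+raloxifene, and 9.54 with tamoxifen and 9.35 with E2+tamoxifen. Acolbifene alone lay below the vehicle for this gene, at -0.20 ± 0.10 (SE, adjusted p = 0.341), which did not pass. Rsad2 (viperin) ranged from 10.01 with E2+tamoxifen to 10.64 on vehicle array 1, Ifi35 from 10.80 with E2+tamoxifen to 11.14 on acolbifene array 1 and Xaf1, a promoter of apoptosis, from 10.09 with E2+fulvestrant to 10.47 on vehicle array 2. None of these 3 passed, with differences between E2+acolbifene and acolbifene of -0.34, -0.24 and -0.09; that of Xaf1 turned to 0.09 after another quantile normalization.

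All 4 GTPases of the GBP and IRG families, which act on vacuoles of intracellular pathogens, fell when E2 was added to acolbifene, and all 4 were above the vehicle with acolbifene alone without passing. Igtp read 10.28 and 10.38 on the vehicle arrays, 10.07 and 10.18 with E2, 10.76 and 10.66 with acolbifene, and 10.05 and 10.05 with E2+acolbifene. The other groups gave Igtp levels of 10.15 with fulvestrant and 9.87 with E2+fulvestrant, 10.14 with raloxifene and 10.12 with E2+raloxifene, and 10.17 with tamoxifen and 10.02 with E2+tamoxifen. Both acolbifene arrays were the highest of all 14, at 0.38 ± 0.09 (SE, adjusted p = 0.0824) against the vehicle, and adding E2 gave -0.66 ± 0.09 (SE, adjusted p = 0.00707). Irgm1 read 10.11 and 10.22 on the vehicle arrays, 10.04 and 10.13 with E2, 10.45 and 10.45 with acolbifene, and 10.01 and 9.97 with E2+acolbifene. Irgm1 elsewhere read 10.08 with fulvestrant and 9.89 with E2+fulvestrant, 10.03 with raloxifene and 10.24 with E2+raloxifene, and 10.11 with tamoxifen and 10.05 with E2+tamoxifen. Its differences were 0.29 ± 0.09 (SE, adjusted p = 0.157) for acolbifene against vehicle and -0.47 ± 0.09 (SE, adjusted p = 0.0185) for E2+acolbifene against acolbifene. Gbp2 read 10.52 and 10.51 on the vehicle arrays, 10.59 and 10.42 with E2, 10.74 and 10.89 with acolbifene, and 10.32 and 10.22 with E2+acolbifene. On the remaining arrays Gbp2 read 10.39 with fulvestrant and 10.24 with E2+fulvestrant, 10.33 with raloxifene and 10.48 with E2+raloxifene, and 10.50 with tamoxifen and 10.24 with E2+tamoxifen. E2 alone did not stand apart from the vehicle (-0.00, a sign that turned under 3 settings), acolbifene was above it at 0.30 ± 0.10 (SE, adjusted p = 0.17), and E2+acolbifene was below acolbifene, at -0.54 ± 0.10 (SE, adjusted p = 0.0158). Gbp3 read 9.92 and 9.93 on the vehicle arrays, 9.78 and 9.86 with E2, 10.02 and 10.04 with acolbifene, and 9.56 and 9.59 with E2+acolbifene. Single-array levels of Gbp3 were 9.82 with fulvestrant and 9.53 with E2+fulvestrant, 9.77 with raloxifene and 9.88 with E2+raloxifene, and 9.85 with tamoxifen and 9.45 with E2+tamoxifen. Gbp3 differed by -0.46 ± 0.08 (SE, adjusted p = 0.0171) between E2+acolbifene and acolbifene and by -0.24 ± 0.08 (SE, adjusted p = 0.112) between E2+acolbifene and E2, where it did not pass.

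Antigen-processing genes, which supply peptides to MHC class I, also fell, all 3 of them. Psmb8, an immunoproteasome subunit, read 11.47 and 11.64 on the vehicle arrays, 11.36 and 11.39 with E2, 11.70 and 11.48 with acolbifene, and 11.31 and 11.08 with E2+acolbifene. Psmb8 with the other blockers read 11.22 with fulvestrant and 11.11 with E2+fulvestrant, 11.11 with raloxifene and 11.18 with E2+raloxifene, and 11.24 with tamoxifen and 11.02 with E2+tamoxifen. Its difference was -0.40 ± 0.11 (SE, adjusted p = 0.0475), and each of the 6 single arrays lay below both vehicle arrays. Psmb9, another subunit, read 10.67 and 10.66 on the vehicle arrays, 10.51 and 10.57 with E2, 10.83 and 10.74 with acolbifene, and 10.48 and 10.45 with E2+acolbifene. For Psmb9 the other groups gave 10.47 with fulvestrant and 10.32 with E2+fulvestrant, 10.33 with raloxifene and 10.45 with E2+raloxifene, and 10.47 with tamoxifen and 10.32 with E2+tamoxifen. It differed by -0.32 ± 0.08 (SE, adjusted p = 0.0416), and the 6 single arrays lay below both vehicle arrays here too. Tap1, a subunit of the peptide transporter, read 9.94 and 9.81 on the vehicle arrays, 9.77 and 9.82 with E2, 10.11 and 9.98 with acolbifene, and 9.70 and 9.33 with E2+acolbifene. The levels of Tap1 elsewhere were 9.80 with fulvestrant and 9.75 with E2+fulvestrant, 9.72 with raloxifene and 9.93 with E2+raloxifene, and 9.81 with tamoxifen and 9.71 with E2+tamoxifen. It differed by -0.53 ± 0.12 (SE, adjusted p = 0.0302), but its E2+acolbifene arrays were 0.37 apart, and the call was lost without array 2 of that pair or without either acolbifene array. Averaged over all probe sets of Tap1 the difference was -0.14 (adjusted p = 0.18), and that of Psmb8 was -0.21 (adjusted p = 0.112). These averages take in dim probe sets, with mean levels of 5.30 and 6.02 for Tap1 and 5.30 for Psmb8. The 40th percentile of all probe sets was 6.65. A further Tap1 probe set, with a mean level of 7.28, gave -0.24 (limma adjusted p = 0.156). The calls of Psmb8 and Psmb9 were the least stable of the 19, kept in 4 and 5 of 16 alternative settings.

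Of the chemokines that draw activated T cells, Cxcl9, induced mainly by interferon gamma, fell. Cxcl9 read 10.57 and 10.48 on the vehicle arrays, 10.29 and 10.40 with E2, 10.78 and 10.75 with acolbifene, and 10.21 and 10.21 with E2+acolbifene. Cxcl9 on the single arrays read 10.33 with fulvestrant and 10.17 with E2+fulvestrant, 10.20 with raloxifene and 10.16 with E2+raloxifene, and 10.35 with tamoxifen and 10.41 with E2+tamoxifen. Acolbifene arrays were the highest and differed from the vehicle by 0.24 ± 0.09 (SE, adjusted p = 0.222), and adding E2 gave -0.56 ± 0.09 (SE, adjusted p = 0.0109). The other probe set of Cxcl9 gave -0.05 (limma adjusted p = 0.747) in that comparison, and the average of both gave -0.30 (adjusted p = 0.0247). E2+raloxifene was its lowest array, followed by E2+fulvestrant. Cxcl10 read 8.51 and 8.23 on the vehicle arrays, 8.19 and 8.53 with E2, 8.43 and 8.43 with acolbifene, and 8.11 and 8.08 with E2+acolbifene. Its other levels were 8.38 with fulvestrant and 8.07 with E2+fulvestrant, 8.37 with raloxifene and 8.41 with E2+raloxifene, and 8.30 with tamoxifen and 8.29 with E2+tamoxifen. The vehicle arrays of Cxcl10 were 0.28 apart, and no comparison passed, the difference between E2+acolbifene and acolbifene being -0.34 ± 0.12 (SE, adjusted p = 0.0956).

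The other blockers were read on 1 array per group, so each difference has no replicate of its own and takes its error from the replicated groups, with a term for the raw-file code. The E2 arrays differ in that code, so the term takes up their difference, and the error rests on the other 3 pairs (vehicle, acolbifene and E2+acolbifene). None of the 31 members passed in any of these 15 comparisons, and the smallest adjusted p was 0.0767 (Irf7, E2+fulvestrant minus fulvestrant). Few probe sets passed at all. Against the vehicle 0.153% were called for fulvestrant, 0.00888% for raloxifene and 0.0111% for tamoxifen. Against E2 the shares were 0.0222% for E2+fulvestrant, 0.0955% for E2+raloxifene and 0.0133% for E2+tamoxifen. Adding E2 to the blocker called 0.384% with fulvestrant, 0.0333% with raloxifene and 0.18% with tamoxifen. Between blockers without E2 the shares were 0.0333% (fulvestrant and raloxifene), 0.0466% (fulvestrant and tamoxifen) and 0.00222% (raloxifene and tamoxifen), and with E2 they were 0.0644%, 0.0289% and 0.102% for the same pairs.

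Adding E2 went with lower members for fulvestrant and tamoxifen and not for raloxifene. With fulvestrant all 31 members were below 0 on adding E2, with a median of -0.26, and 18 were lower by more than 0.25 (7.03% of all probe sets). Irf7 differed by -0.65 ± 0.12 (SE, adjusted p = 0.0767), Ifit1 by -0.60 ± 0.14 (SE, adjusted p = 0.172) and Oasl2 by -0.58 ± 0.14 (SE, adjusted p = 0.206). With tamoxifen 26 of 31 were below 0, the median was -0.16, and 7 were lower by more than 0.25 (8.9% of all probe sets), led by Ifit3 at -0.46 ± 0.12 (SE, adjusted p = 0.243). After another quantile normalization that median was -0.05. With raloxifene 27 of 31 were above 0, the median was 0.12, none was lower by more than 0.25 (4.96% of all probe sets) and 2 were higher by more than that (5.74%), namely Oasl1 at 0.50 ± 0.13 (SE, adjusted p = 1) and Irf8 at 0.32 ± 0.12 (SE, adjusted p = 1).

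**Figure D5:**
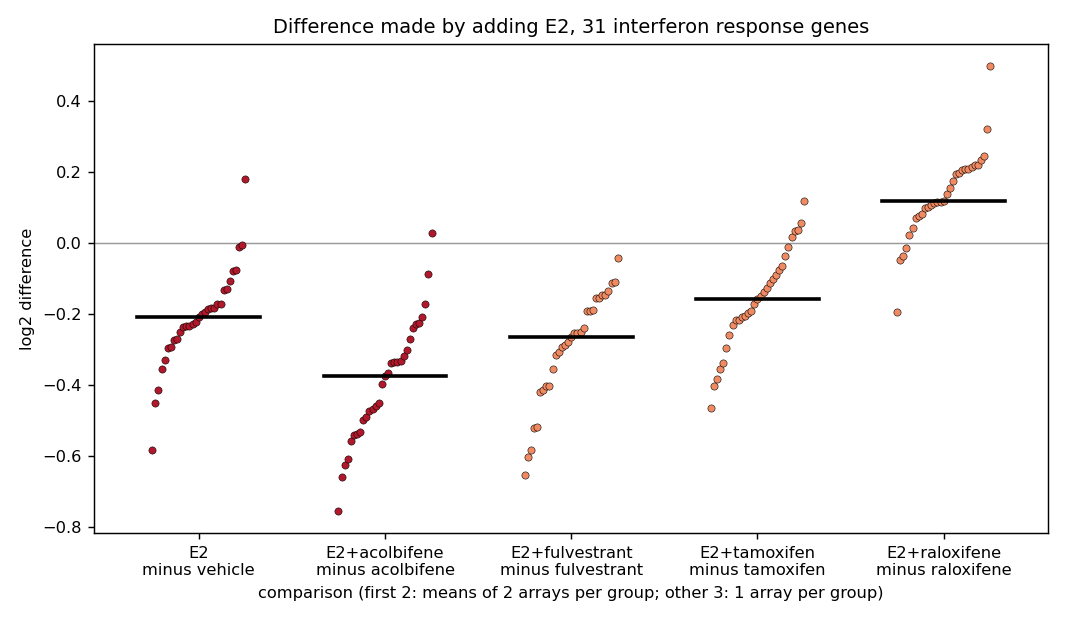
Each point is 1 of the 31 genes and gives the log2 difference made by adding E2, on top of vehicle, acolbifene, fulvestrant, tamoxifen or raloxifene; bars mark the medians. The first 2 comparisons rest on 2 arrays per group and the other 3 on 1 array per group. The medians are -0.21, -0.37, -0.26, -0.16 and 0.12 from left to right.

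With E2 present the E2+raloxifene array stood above the other single arrays in these genes. Between E2+fulvestrant and E2+raloxifene 30 of 31 members were below 0, with a median of -0.33, and 22 were lower by more than 0.25 (5.97% of all probe sets). Oasl1 differed by -0.73 ± 0.13 (SE, adjusted p = 0.178) and Irf7 by -0.71 ± 0.12 (SE, adjusted p = 0.13). Between E2+raloxifene and E2+tamoxifen 29 members were above 0, with a median of 0.29 (0.19 after another quantile normalization), and 17 were higher by more than 0.25 (9.72% of all probe sets), led by Oasl2 at 0.61 ± 0.14 (SE, adjusted p = 0.199). E2+fulvestrant and E2+tamoxifen differed by -0.03 at the median, with 20 members below 0. The difference between the E2 effects with raloxifene and with fulvestrant, a comparison chosen after the data were seen, was above 0 for all 31 members with a median of 0.41. At an unadjusted limma p under 0.05 it was higher for 17 members, where 6.73% of all probe sets passed in either direction. None of the members passed after adjustment (smallest 0.249), and 0.0111% of all probe sets did. The same difference between raloxifene and tamoxifen had a median of 0.32. At an unadjusted limma p under 0.05, 10 members were higher, where 8.69% of all probe sets passed in either direction. None of the members passed after adjustment (smallest 0.452), and 0.00222% of all probe sets did. All 6 arrays behind these values carry the same raw-file code, and each value rests on single arrays.

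Against E2 array 1, the E2 array with the same raw-file code, the medians were -0.10 for E2+fulvestrant, 0.22 for E2+raloxifene and -0.05 for E2+tamoxifen. The last turned to 0.09 after another quantile normalization. Without E2, the blockers differed little from the vehicle once the code was a term in the fit, with medians of 0.04 for fulvestrant, -0.04 for raloxifene and -0.05 for tamoxifen. Without that term they were -0.09, -0.19 and -0.19, so the direction for fulvestrant depends on it, and the code and these groups cannot be told apart except through the E2 pair. Between blockers the medians were 0.09 for fulvestrant minus raloxifene, 0.08 for fulvestrant minus tamoxifen and 0.01 for raloxifene minus tamoxifen. The 95% interval of a member's difference had a median width of 0.77 in the comparisons with the vehicle and 0.58 in the other single-array comparisons, so differences of those sizes could have been missed.

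The members' differences are given next by the ISRE core in their promoter window. Between E2+acolbifene and acolbifene the 13 genes with a match had a median of -0.46 (10 called), and the 13 genes with a window but no match a median of -0.34 (8 called). Over all probe sets 9.2% were called in that comparison and 5.67% were called lower. Whether the genes with and without a match differ was not tested. For E2 against vehicle the medians were -0.19 and -0.21, and for E2+acolbifene against vehicle -0.31 and -0.32. On adding E2 to fulvestrant, with 1 array a group, they were -0.29 and -0.15. The Igtp, Gbp2 and Irgm1 stretches printed above belong to members among the highest with acolbifene alone, and those of Ifit1 and Ifit3 to members near or below the vehicle there.

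A wider list of 86 measured genes gives the rest of the pathway, from ligands and receptors to further targets. Adding E2 to acolbifene lowered 30 of the 86 and raised 1, with a median of -0.26, where 9.2% of all probe sets were called and 5.67% were called lower. All 6 further interferon-inducible GTPases fell, with a median of -0.68. Iigp1, which attacks parasite vacuoles, read 11.59 and 11.64 on the vehicle arrays, 11.29 and 11.55 with E2, 12.28 and 12.23 with acolbifene, and 11.30 and 11.29 with E2+acolbifene, a difference of -0.96 ± 0.10 (SE, adjusted p = 0.00182). Gbp6 read 10.43 and 10.40 on the vehicle arrays, 10.34 and 10.40 with E2, 11.08 and 11.03 with acolbifene, and 10.20 and 10.18 with E2+acolbifene, a difference of -0.86 ± 0.08 (SE, adjusted p = 0.00133). Irgm2 differed by -0.75 ± 0.09 (SE, adjusted p = 0.0052) and Gbp7 by -0.61 ± 0.09 (SE, adjusted p = 0.00929). These calls of Iigp1, Gbp6 and Irgm2 were kept in all 16 alternative settings run for them, those without 1 array and the other quantile normalization included, and that of Gbp7 in 14. The list's count fell to 3 without acolbifene array 1 or E2+acolbifene array 2, to 8 without the other array of either pair, and to 6 after another quantile normalization. The shares of all probe sets called in these refits are not given here. Of 9 receptor and signalling genes 2 fell, the receptor chains Ifnar1 at -0.52 and Ifngr2 at -0.43. Of 33 further antiviral genes 10 fell, of 13 antigen-presentation genes 6, of 12 sensing genes 3, of 4 IRF factors 1 and of 9 ligands and other chemokines 2. The gene that rose was Ifnb1, the interferon beta ligand, at 0.43 ± 0.09 (SE, adjusted p = 0.0254), from 6.68 and 6.72 on the vehicle arrays, 6.80 and 6.88 with E2, 6.54 and 6.47 with acolbifene, and 6.86 and 7.00 with E2+acolbifene. That call was kept in 11 of 16 settings, with an adjusted p of up to 0.166. Both acolbifene readings of Ifnb1 lay below 6.65, the 40th percentile of the mean levels of all probe sets, and its vehicle readings lay just above it. The type II ligand Ifng lay between 4.83 and 5.01 on all 14 arrays, below that level throughout. Readings this dim do not show that either ligand's transcript was present.

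The other comparisons called at most 8 genes of this list each. Over all probe sets 3.74% were called for E2, 0.597% for acolbifene and 0.837% for E2+acolbifene, each against the vehicle. For E2+acolbifene against E2 the share was 3.66%, and for the difference between the acolbifene effects it was 4.47%. With E2 the cytokine-signalling inhibitor Socs3 rose by 1.36 on the log2 scale, Irf4, a lymphocyte factor, by 0.81 and Ccl7, a monocyte chemokine, by 0.66, while Il15 fell by 0.44 and Ciita, the MHC class II regulator, by 0.38. The 3 rises were kept in all 16 alternative settings, the fall of Il15 in 11 and that of Ciita in 5. Socs3 read 9.38 and 9.64 on the vehicle arrays, 10.89 and 10.84 with E2, 10.07 and 9.97 with acolbifene, and 9.68 and 9.85 with E2+acolbifene, so both E2 arrays stood above the other 6. With acolbifene Iigp1 and Gbp6 (both 0.64), Ccl7 (0.50) and Irf4 (0.50) rose and Ccl5 fell by 0.48. The rises of Iigp1 and Gbp6 were kept in 12 and 13 of 16 alternative settings, those of Irf4 and Ccl7 in 8 and the fall of Ccl5 in 5. With E2+acolbifene Irf4 rose by 0.61 against the vehicle, a call kept in 12 of 16 settings. In that comparison 74 of the 86 genes were below 0, with a median of -0.15. An unadjusted limma p under 0.05 was reached by 37 of them and by 19.4% of all probe sets. Against E2 Socs3 fell by 1.10, Ccl7 by 0.69, Ccl2 by 0.64 and Gbp7 by 0.43, and 4 genes were called lower and none higher. Of these calls that of Socs3 was kept in 16 settings, of Ccl7 in 15, of Ccl2 in 12 and of Gbp7 in 9; over the settings the difference of Gbp7 came down to -0.15 and its adjusted p reached 0.382. Whether acolbifene acted differently with and without E2 gave 8 calls in the list, all negative, among them Socs3 at -1.62 ± 0.15 (SE, adjusted p = 0.00077), Ccl7 at -1.20 ± 0.13 (SE, adjusted p = 0.00187) and Gbp6 at -0.82 ± 0.12 (SE, adjusted p = 0.00815).

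Macrophage markers moved with the members on most arrays. All 14 were measured, and their median against the vehicle mean was -0.20 and -0.24 on the E2 arrays, 0.26 and 0.24 on the acolbifene arrays and -0.16 and -0.19 on the E2+acolbifene arrays. On the single arrays it was 0.06 with fulvestrant and -0.22 with E2+fulvestrant, and -0.08 with raloxifene and 0.14 with E2+raloxifene. It was -0.13 with tamoxifen and -0.33 with E2+tamoxifen. The member median had the other sign on the fulvestrant array (-0.09) and the E2+raloxifene array (-0.05). Between E2+acolbifene and E2 the markers had a median of 0.01 and the members one of -0.10. Between E2+acolbifene and acolbifene 9 of the 14 fell, with a median of -0.44; 0 were called without acolbifene array 1 or E2+acolbifene array 2, 4 without E2+acolbifene array 1 and 7 without acolbifene array 2. Shares of all probe sets called in the fits without 1 array are not given here. The summed linear signal of the macrophage list, relative to the vehicle mean, was 0.88 and 0.89 with E2, 1.20 and 1.18 with acolbifene and 0.91 and 0.90 with E2+acolbifene. The part of macrophage content in the members' differences was not tested.

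Some fibroblast, endothelial and fat cell markers fell in the same comparison. Between E2+acolbifene and acolbifene the median was -0.28 for 6 fibroblast markers (2 called lower), -0.25 for 9 endothelial markers (1 called lower) and -0.24 for 7 adipocyte markers (1 called lower). Over all probe sets 5.67% were called lower. All 6 fibroblast markers lay above both vehicle arrays on both acolbifene arrays, with medians of 0.33 and 0.20. The part of these cells in the members' differences was not tested. The median of the 10 measured lymphocyte markers lay below the vehicle mean on all 12 other arrays, acolbifene included (-0.08 and -0.15), and reached -0.38 with E2+fulvestrant. For NK cells, a source of interferon gamma, the median of 6 markers was -0.06 between E2+acolbifene and acolbifene with 1 called lower. For plasmacytoid dendritic cells, a source of type I interferon, the median of 5 was -0.28 with none called, and Siglech had a mean level of 8.31. Xcr1, a marker of a dendritic cell subset, had a mean level of 6.57, below the 40th percentile of all probe sets (6.65). Skeletal muscle markers varied between arrays more than any of these lists, from -1.58 with E2+raloxifene to 0.71 with fulvestrant, and were at 0.69 and 0.59 with E2+acolbifene; their part in the results was not tested.

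The members were alike in their course over the arrays, with 3 exceptions. Pearson's r of a member with the median of the other members, over the 14 arrays, was 0.97 for Irf7, Bst2 and Oasl2, and lowest for Xaf1 (0.44), Mx2 (0.49) and Irf9 (0.59). This is a description: the arrays share groups, codes and normalization. Of 17 further probe sets of the members, 13 were below 0 between E2+acolbifene and acolbifene and 2 were called (9.2% of all probe sets). For E2 against vehicle 12 were below 0 and none was called (3.74% of all probe sets).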

How the data were processed

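The data were 14 Affymetrix expression arrays of pooled mammary glands. The authors deposited log2 values; the submitters' processing notes name RMA and give no version. The probe sets are those of the Mouse Genome 430 2.0 array, while the series' own text names the U74Av2 array. Probe sets were named through GEO's platform annotation: of 45101, 64 were controls and left out, and of the others 34945 had 1 symbol, 932 several and 9160 none. The members and gene lists were chosen with earlier results of these data known.

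The 6 comparisons of groups with 2 arrays were fitted with limma 3.58.1 (R 4.3.3) on their 8 arrays with no covariate. The 15 comparisons with single arrays, and 2 added after the data were seen, were fitted on 14 arrays with a term for the raw-file code. There, comparisons with the vehicle pass through the E2 pair, and comparisons with E2 rest on E2 array 1. P-values were adjusted by Benjamini-Hochberg over all 45037 probe sets, with a threshold of 0.05. Values on every array were given for members called in a comparison and for the 3 largest differences per direction; of the wider list, up to 4 called genes per direction and comparison were named. Motifs were searched with Python 3.11.15. The fits were tested on simulated data. The number of arrays limits the precision.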

Additional observations from a re-analysis of the deposited data

Results flagged for a closer look

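For 9 genes the difference made by acolbifene with E2 present differed from that made without E2, by a test of the difference itself (limma on 8 arrays, adjusted p under 0.05). Over all probe sets 4.47% passed that test. Gbp2, a member, gave -0.54 on the log2 scale and kept its call in 5 of 16 alternative settings. From the wider list, Socs3 gave -1.62, Ccl7 -1.20 and Gbp6 -0.82, and these calls were kept in all 16. Iigp1 gave -0.77 (12 of 16), Gbp7 -0.75 (11), Ccl2 -0.74 (13), Irf4 -0.70 (12) and Irgm2 -0.70 (9). The GTPases Gbp2, Gbp6, Gbp7, Iigp1 and Irgm2 were above the vehicle with acolbifene alone and below it with E2+acolbifene. Socs3, Ccl7 and Ccl2 were highest with E2 alone among the 4 replicated groups.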

How the results depend on the processing

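Counts of called members are given first, with the cause of each change not tested. A setting can change the calls over all probe sets too, and those shares are not given here. A higher or lower count is therefore not a result about the members alone. For E2 against vehicle, with 1 call, the count was 4 without dim probe sets, 6 with an intensity trend, 3 with probe sets of a gene averaged, 0 with a term for the raw-file code, and 0 to 3 leaving out 1 array. For acolbifene against vehicle, with 0 calls, it was 1, 3 and 2 under the first 3 of these settings. For E2+acolbifene against vehicle, with 1 call, it was 3 after subtracting array medians, 4 without dim probe sets, 15 with the trend, 7 averaged, 0 after another quantile normalization, 2 with the code, 0 with the replicate number as a block, and 0 to 2 leaving out 1 array. For E2+acolbifene against acolbifene, with 19 calls, it was 5 after another quantile normalization, 12 with the replicate block, and 0 to 17 leaving out 1 array. For the difference between the acolbifene effects, with 1 call, it was 5 after subtracting medians, 3 without dim probe sets, 8 with the trend and 3 averaged, and 0 under quantile normalization, the code term, the replicate block and leaving out any 1 array. Among single-array comparisons, with 0 calls, the trend gave 4 for E2+raloxifene against E2, 7 for E2+fulvestrant against fulvestrant, 2 for E2+tamoxifen against tamoxifen, 7 for E2+fulvestrant against E2+raloxifene, 8 for E2+raloxifene against E2+tamoxifen, and 6 and 1 for the E2 effect with raloxifene against that with fulvestrant and tamoxifen. Leaving out dim probe sets gave 1 for E2+fulvestrant against fulvestrant and 1 against E2+raloxifene, and averaging gave 2 and 1.

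Some small differences changed sign. For E2 against vehicle, Cxcl10 was 0.0125 with medians subtracted, 0.1557 with the code term or without E2 array 1, and 0.1298 without vehicle array 1, and Gbp2 was 0.0188 with medians subtracted, 0.0076 after quantile normalization and 0.0809 without E2 array 2. For E2+acolbifene, Irf9 against vehicle was -0.0149 with medians subtracted and -0.0189 without E2+acolbifene array 1, and Oasl1 against E2 was -0.0415 with the code term or without E2 array 1. Against acolbifene, Mx2 was -0.0191 with medians subtracted and -0.0746 without acolbifene array 1, and Xaf1 was 0.094 after quantile normalization. Leaving out 1 array, these 5 differences ran from -0.178 to 0.1557 for Cxcl10, -0.0907 to 0.0809 for Gbp2, -0.0189 to 0.069 for Irf9, -0.0415 to 0.2727 for Oasl1 and -0.0746 to 0.1294 for Mx2. Replicate numbers were not taken as pairing the arrays: correlations of replicate differences ran from -0.123 to 0.117. Without E2 array 1 the comparisons with E2, and without either E2 array those of single arrays with the vehicle, could not be fitted.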
